A study of Mus musculus with 10 samples.

Results

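Itch and non-peptidergic nociceptor genes were followed in the mouse trigeminal ganglion as a set of 10 genes: the receptor genes Mrgprd, Mrgpra3, Mrgprx1, Mrgprb4, Il31ra, Cysltr2, Hrh1 and F2rl1 and the peptide genes Sst and Nppb. They were picked by name and found by gene identifier, all 10 of them, among 26411 genes in one table and 55886 in the other, and all 10 passed the filter on low values in both tables. The trigeminal ganglion houses the cell bodies of facial sensory neurons and the glia around them. In a surgery experiment, 3 libraries came from mice 10 days after the operation that the labels call pIONT and 3 from sham-operated mice at the same time. In an injection experiment, 2 libraries came from ganglia 6 hours after urocortin 1 (UCN1), a peptide of the corticotropin-releasing factor family, was injected into the ganglion, and 2 from ganglia injected with phosphate-buffered saline (PBS). No genotype, transgene or shared treatment is named for any group, and strain, sex and age are not stated in the labels. Nor do they say whether a library was 1 animal or a pool. The p-values therefore set differences between groups only against the spread of these samples within a group, which may be technical.

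Itch is carried by small sensory neurons whose endings in the skin bear receptors for the substances that provoke it. In the mouse, neurons with Mrgprd form the large class of non-peptidergic nociceptors, which carry few neuropeptides and respond to noxious mechanical stimuli. Smaller classes carry Mrgpra3 and other Mrgpr receptors, or Nppb and Sst together with receptors for interleukin-31 and leukotrienes, and these are the classes best known as itch neurons. In bulk RNA, fewer cells of a class and less RNA per cell cannot be told apart.

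The starts of 4 of the genes are shown because 3 of them, Mrgprd, Il31ra and Cysltr2, were lower in pIONT libraries, and the fourth, Sst, holds the textbook site through which cyclic AMP acts on a promoter. Each is the RefSeq window of build GRCm38.p6 from 250 bases before to 50 bases after the start of transcription, written 5′ to 3′ on the strand of the gene, with the cyclic AMP response element TGACGTCA in capitals where it occurs.
Mrgprd promoter, chr7:145314585-145314884, plus strand: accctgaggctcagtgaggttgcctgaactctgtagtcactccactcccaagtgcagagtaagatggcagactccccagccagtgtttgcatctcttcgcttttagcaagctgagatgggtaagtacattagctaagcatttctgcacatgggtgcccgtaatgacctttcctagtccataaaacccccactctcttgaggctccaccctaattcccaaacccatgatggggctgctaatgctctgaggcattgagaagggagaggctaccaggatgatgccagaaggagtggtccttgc
Il31ra promoter, chr13:112580613-112580912, minus strand: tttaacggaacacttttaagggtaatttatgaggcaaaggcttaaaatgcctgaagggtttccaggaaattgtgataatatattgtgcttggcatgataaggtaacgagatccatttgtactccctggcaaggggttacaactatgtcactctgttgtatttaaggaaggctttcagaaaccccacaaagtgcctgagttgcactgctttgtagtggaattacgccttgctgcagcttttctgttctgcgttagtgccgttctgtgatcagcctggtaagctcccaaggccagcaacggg
Cysltr2 promoter, chr14:73049065-73049364, minus strand: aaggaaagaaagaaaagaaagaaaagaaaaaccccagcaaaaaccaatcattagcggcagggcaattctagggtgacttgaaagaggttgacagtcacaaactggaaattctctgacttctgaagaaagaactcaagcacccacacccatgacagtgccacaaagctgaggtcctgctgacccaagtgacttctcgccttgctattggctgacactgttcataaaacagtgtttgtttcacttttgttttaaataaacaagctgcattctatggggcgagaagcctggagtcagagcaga
Sst promoter, chr16:23890795-23891094, minus strand: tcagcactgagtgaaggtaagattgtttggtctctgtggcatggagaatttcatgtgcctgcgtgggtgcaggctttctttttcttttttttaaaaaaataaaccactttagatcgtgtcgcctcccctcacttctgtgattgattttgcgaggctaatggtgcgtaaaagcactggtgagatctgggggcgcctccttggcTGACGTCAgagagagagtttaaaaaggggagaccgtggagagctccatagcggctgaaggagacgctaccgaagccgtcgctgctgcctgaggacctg
In all, 8 of the 10 genes had such windows, 11 windows together. Of 32851 windows of all genes, 1.79% held TGACGTCA, which reads the same on both strands, and of the 8 genes with windows Sst was the one that held it, 48 bases before its start. One form of the core motif of RUNX factors, TGTGGT on either strand, was in 16.8% of all windows and in 0 of the 11. Other forms of that core were not searched. Mrgpra3 and F2rl1 had no window and were not searched. The AP-1 site TGACTCA, on either strand, was in 5.20% of all windows and in 1 of the 4 windows of Hrh1, 216 bases before that start. GC content was 51.7% for Mrgprd, 44.7% for Il31ra, 43.7% for Cysltr2 and 50.3% for Sst, against a median of 52.7% over all windows. These matches describe letters in a window and show no binding.

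On build GRCm38, 4 receptor genes of the Mrgpr family lie on chromosome 7, with Mrgprd at 145314835 to 145324086, Mrgpra3 at 47588950 to 47601372, Mrgprx1 at 48020971 to 48027597 and Mrgprb4 at 48198070 to 48199288. Mrgpra3 and Mrgprx1 were identical at 73.1% of aligned coding bases, Mrgprx1 and Mrgprb4 at 69.0%, Mrgpra3 and Mrgprb4 at 68.6%, and Mrgprd matched the other 3 at 63.4% to 63.8%. Of all windows of 50 bases along their exons, 7.14% in Mrgpra3, 5.84% in Mrgprx1 and 1.45% in Mrgprb4 recurred exactly in another gene or pseudogene, so short reads there could be shared. The share was 1.03% in Cysltr2, 0.38% in Il31ra and 0 in the other 5 genes, Mrgprd included, and at 100 bases the share was 0 for all 10 genes. Il31ra lies on chromosome 13 at 112519898 to 112594360, F2rl1 on chromosome 13 at 95511732 to 95525227, Cysltr2 on chromosome 14 at 73025603 to 73049114 and Hrh1 on chromosome 6 at 114397936 to 114483296. The peptide genes are Sst on chromosome 16 at 23889573 to 23890958 and Nppb on chromosome 4 at 147985788 to 147987205. No exon of the 10 genes overlapped a gene on the opposite strand in that annotation.

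Values are FPKM, fragments per kilobase of gene and per 1e6 reads. Depth in genes was 25.6 to 29.6 M reads (M for 1e6) in pIONT and 24.1 to 28.7 M in sham libraries, and at least 15.7 M in each UCN1 and PBS library. Sensory neuron genes were present throughout, with the neuronal tubulin gene Tubb3 averaging 2149 FPKM in pIONT and 1162 FPKM in sham libraries. Markers of other tissue varied between libraries. The summed level of 8 pituitary genes was 117 to 132 FPKM in pIONT libraries, against 80.9 to 767 FPKM in sham libraries with the top value in sham 1. The summed level of 10 macrophage genes was 314 to 779 FPKM in pIONT libraries with the top value in pIONT 2, against 149 to 268 FPKM in sham libraries.

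In sham libraries Mrgprd stood far above the other genes, at 45.1 ± 6.46 FPKM (SD, n = 3), a level per base of exon that can be set against other genes. Next came Mrgpra3 at 9.39 ± 1.36, Mrgprx1 at 7.10 ± 2.28, Sst at 6.07 ± 0.838 and Nppb at 5.00 ± 0.252 FPKM (SD, n = 3), and each of these overlapped its neighbour in the order over the 3 libraries. Il31ra, Mrgprb4, Cysltr2 and F2rl1 followed at 3.26, 2.54, 1.94 and 1.78 FPKM with overlapping neighbours, and Hrh1 was lowest at 0.895 FPKM. Mrgprd supplied 50.2% to 52.5% of the summed FPKM of the 10 genes in pIONT libraries and 53.0% to 55.7% in sham libraries. Mrgprd thus supplied the largest single share of that sum in each of these libraries.

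**Figure D1:**
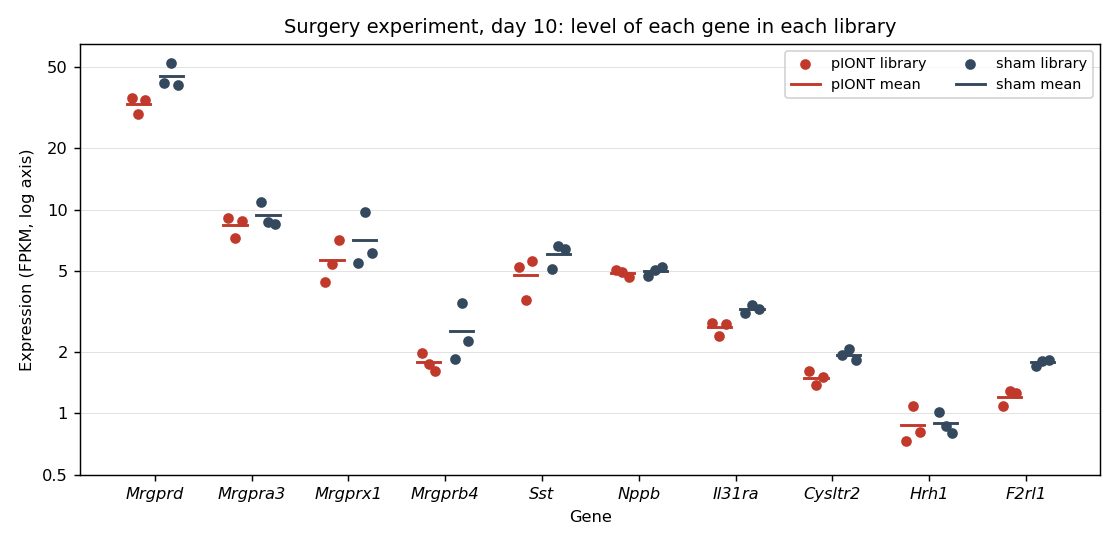
Level of each gene in the surgery experiment, in FPKM on a log axis, with 1 point per library, pIONT in red and sham in dark blue, and a line at each group mean. Mrgprd, Il31ra, Cysltr2 and F2rl1 have all pIONT points below all sham points, while the points of the other 6 genes overlap.

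The first comparison asked how transcripts of the ganglion differed 10 days after pIONT. Of the 10 genes, 4 fell and 0 rose: the beta-alanine receptor gene Mrgprd, the interleukin-31 receptor gene Il31ra, the leukotriene receptor gene Cysltr2 and F2rl1, which encodes the proteinase-activated receptor PAR2. Their losses were modest, between -0.43 and -0.26 on the log2 scale. The peptides of itch neurons, Sst and Nppb, did not pass. A gene passed, or was called, at an adjusted p below 0.05 in limma on log2(FPKM + 0.5), with adjustment over the 14672 genes tested. Of all genes tested 22.8% were called, 12.3% as lower and 10.5% as higher, and 37.0% had an unadjusted p below 0.05, as did the same 4 of the 10. The 4 were also the genes whose pIONT libraries all lay below all sham libraries, as in 24.7% of all genes, while 43.4% had no overlap in either direction. All 10 fold changes were below 0, as were 54.99% of those of all genes tested, and their median was -0.29 on the log2 scale, against -0.02 for all genes tested. These shares and medians describe the genes and were not tested as a set.

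Mrgprd, whose receptor responds to beta-alanine, was at 35.5, 29.5 and 34.4 FPKM in pIONT 1 to 3, against 41.8, 52.5 and 40.9 FPKM in sham 1 to 3. Every pIONT library was below every sham library, and sham 2 was the highest of the 6. The values rested on 2704 to 3203 reads in pIONT libraries and 3104 to 4747 reads in sham libraries, so counting error was small. The log2 fold change was -0.43 (SE 0.11, 95% interval -0.70 to -0.17, limma adjusted p = 0.0320). Without sham 2 the value was -0.32 and the call was lost (limma adjusted p = 0.0567).

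The other Mrgpr receptors of the set did not pass. Mrgpra3, the receptor through which chloroquine provokes itch in mice, was at 9.15, 7.28 and 8.82 FPKM in pIONT libraries, against 10.96, 8.70 and 8.52 FPKM in sham libraries. These ranges overlapped widely, and the log2 fold change was -0.15 (95% interval -0.42 to 0.13, limma adjusted p = 0.403). Mrgprx1, known in mice as a receptor for a peptide cut from proenkephalin, was at 4.44, 5.43 and 7.13 FPKM in pIONT libraries, against 5.47, 9.70 and 6.12 FPKM in sham libraries. Sham 2 again was highest, and the interval of the log2 fold change of -0.28 ran from -0.82 to 0.26 (limma adjusted p = 0.412). Mrgprb4, a marker of unmyelinated fibres that respond to stroking of the skin in mice, was at 1.99, 1.74 and 1.61 FPKM in pIONT libraries, against 1.86, 3.48 and 2.28 FPKM in sham libraries. Its highest value, also in sham 2, came from 122 reads, and the log2 fold change of -0.38 did not pass (95% interval -0.82 to 0.06, limma adjusted p = 0.182). The intervals of Mrgprx1 and Mrgprb4 reach past the change of Mrgprd, so a loss of that size was not excluded for either gene at this spread.

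Il31ra, the subunit that pairs with the oncostatin M receptor to bind the itch cytokine interleukin-31, was at 2.79, 2.39 and 2.76 FPKM in pIONT libraries, against 3.12, 3.42 and 3.25 FPKM in sham libraries. The groups did not overlap, and the log2 fold change was -0.26 (SE 0.07, 95% interval -0.43 to -0.09, limma adjusted p = 0.0424). Its partner Osmr, which is also found in other cells, averaged 2.34 ± 0.172 FPKM in pIONT and 2.16 ± 0.0796 FPKM in sham libraries (SD, n = 3) and did not pass (log2 fold change 0.09, limma adjusted p = 0.377). Cysltr2, a receptor for cysteinyl leukotrienes, was at 1.62, 1.37 and 1.51 FPKM in pIONT libraries, against 1.93, 2.07 and 1.82 FPKM in sham libraries. Again all pIONT values were the lower ones, on 115 to 128 reads in pIONT libraries and 126 to 171 reads in sham libraries. The log2 fold change of Cysltr2 was -0.29 (SE 0.08, 95% interval -0.48 to -0.10, limma adjusted p = 0.0417). The calls of Mrgprd, Il31ra and Cysltr2 were each lost when any 1 of the 6 libraries was left out, with log2 fold changes of -0.50 to -0.20 over the 3 genes.

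F2rl1 had the smallest adjusted p of the 10 genes. Its product PAR2 is opened by proteases such as mast cell tryptase and is made by several cell types besides neurons. It was at 1.08, 1.29 and 1.26 FPKM in pIONT libraries, against 1.70, 1.80 and 1.83 FPKM in sham libraries. The sham values lay close together and well above the highest pIONT value. The log2 fold change was -0.42 (SE 0.08, 95% interval -0.60 to -0.23, limma adjusted p = 0.0121). F2rl1 was called in 13 of 15 alternatives and lost its call without sham 3, at -0.40 (limma adjusted p = 0.0515), and with scaling to sensory neuron genes. Hrh1, a histamine receptor found in endothelium as well as neurons, was at 0.730, 1.09 and 0.812 FPKM in pIONT libraries, against 1.02, 0.868 and 0.802 FPKM in sham libraries. The groups overlapped, with pIONT 2 highest, and the log2 fold change was -0.03 (95% interval -0.32 to 0.27, limma adjusted p = 0.905). Among 10 genes of endothelium and mural cells Pecam1 fell by 0.24, a call kept in 7 alternatives and lost in 9, and 0 rose. The summed level of that list was 40.4 to 45.4 FPKM in pIONT and 45.0 to 53.8 FPKM in sham libraries. The part of these cells in the values of Hrh1 and F2rl1 was not tested.

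Sst, the gene of somatostatin, which dampens the release of hormones and transmitters, was at 5.21, 3.61 and 5.57 FPKM in pIONT libraries, against 5.11, 6.66 and 6.44 FPKM in sham libraries. pIONT 2 was lowest and the other pIONT libraries lay above sham 1. The log2 fold change was -0.32 (95% interval -0.70 to 0.06, limma adjusted p = 0.193). Nppb, which encodes the natriuretic peptide that itch neurons release in the spinal cord in mice, was at 5.06, 4.92 and 4.67 FPKM in pIONT libraries, against 4.72, 5.08 and 5.20 FPKM in sham libraries. The groups overlapped, and the log2 fold change was -0.03 (95% interval -0.17 to 0.10, limma adjusted p = 0.732). The bounds of that interval lay above the estimates of Mrgprd, Il31ra, Cysltr2 and F2rl1. The differences between genes were not tested.

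Libraries contributed unequally. Of the 10 genes, 6 were highest in sham 2 and 5 were lowest in pIONT 2. The summed level of the 10 genes was 67.6, 58.6 and 68.5 FPKM in pIONT 1 to 3, against 77.6, 94.3 and 77.2 FPKM in sham 1 to 3. The median log2 level of 14 sensory neuron genes ran the same way, at 5.84, 5.69 and 5.85 in pIONT libraries and 5.98, 6.04 and 5.97 in sham libraries. Their summed level ran the other way, at 5268 to 5473 FPKM in pIONT and 3976 to 4271 FPKM in sham libraries. Tubb3 weighed heavily in that sum, averaging 2149 FPKM in pIONT and 1162 FPKM in sham libraries. Of the 14 fold changes 9 were below 0 and 5 above. When each library was scaled to that median, a step chosen after seeing the data, 0 of the 10 genes were called. Mrgprd was then at -0.23 (limma adjusted p = 0.0758), F2rl1 at -0.21 (limma adjusted p = 0.177), Cysltr2 at -0.081 and Il31ra at -0.054, and Nppb and Hrh1 turned to 0.18 and Mrgpra3 to 0.059. This scaling moved the median of all genes tested by 0.21, and it rests on genes that themselves changed in both directions, with 4 higher, among them Tubb3 at 0.89, and 5 lower, among them Snap25 at -0.59. Whether the 4 losses were specific to these genes or shared with neuronal RNA in general was not tested.

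**Figure D2:**
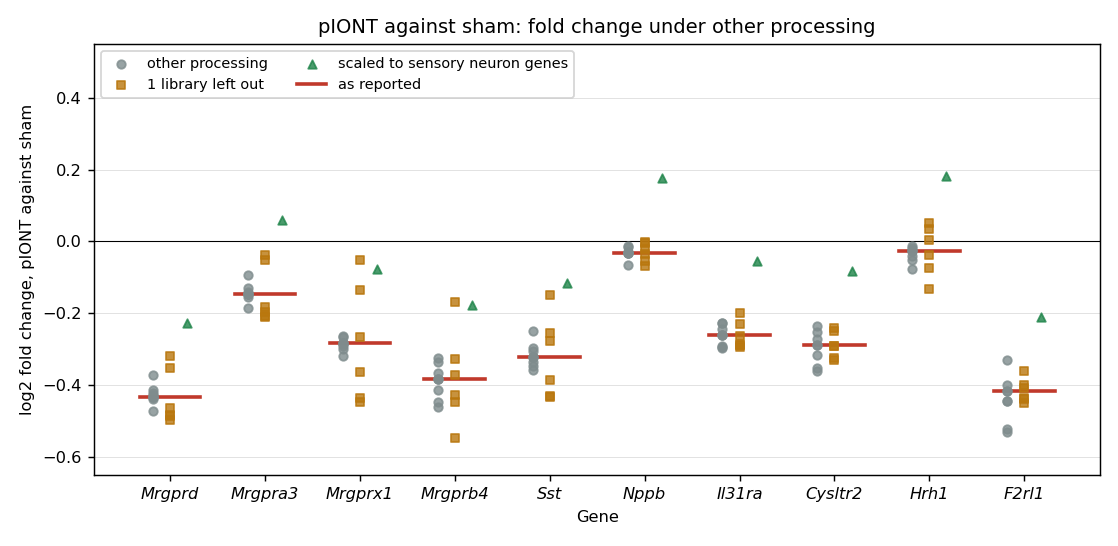
Log2 fold change of each gene in pIONT against sham libraries under other processing (grey circles), with 1 library left out (ochre squares) and with libraries scaled to sensory neuron genes (green triangles), around the value as reported (red line). Mrgprd, Il31ra, Cysltr2 and F2rl1 stay below 0 in all, as do Mrgprx1, Mrgprb4 and Sst. Scaling to sensory neuron genes lifts Mrgpra3, Nppb and Hrh1 above 0.

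Other markers of non-peptidergic nociceptors divided. Of 24 such genes, all tested, 6 fell, 4 rose and 14 did not pass, with a median log2 fold change of -0.12. The risers were Nts, the neuropeptide neurotensin, at 5.50, the GDNF co-receptor Gfra1 at 1.69, and the serotonin receptors Htr1f at 0.62 and Htr1d at 0.38. Nts averaged 144 ± 12.9 FPKM in pIONT and 2.69 ± 0.295 FPKM in sham libraries (SD, n = 3, limma adjusted p = 4.96e-07). Those that fell included, named after their values were seen, the transcription factor Casz1 at -0.42, the neurturin co-receptor Gfra2 at -0.41, the complement regulator Cd55 at -0.36, the sodium channel Scn11a at -0.35 and the lysophosphatidic acid receptor Lpar3 at -0.34. Their sizes lay close to that of Mrgprd. The purinergic channel P2rx3, a widely used marker of the class and also named after its values were seen, averaged 51.5 ± 0.983 FPKM in pIONT and 54.9 ± 2.15 FPKM in sham libraries and did not pass (log2 fold change -0.09, limma adjusted p = 0.171). With scaling to sensory neuron genes, 7 of the 24 were called higher and 0 lower, and the median turned to 0.091. The lower calls numbered 2 without sham 2 or sham 3, 3 without pIONT 2 and 2 with a replicate block, and the higher calls 4 in each of these.

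Of 28 genes of receptors and signalling that itch neurons use, 22 passed the filter, of which 10 rose, 3 fell and 9 did not pass, with a median of 0.24. Among the risers were the shared receptor chains of interleukin-4 and interleukin-13, with Il4ra at 10.8 ± 2.01 FPKM in pIONT and 3.85 ± 0.501 FPKM in sham libraries (SD, n = 3, log2 fold change 1.37, limma adjusted p = 0.00163) and Il13ra1 at 6.31 ± 0.567 FPKM in pIONT and 2.51 ± 0.320 FPKM in sham libraries (SD, n = 3, log2 fold change 1.18, limma adjusted p = 0.000518). The kinase gene Jak1, which acts below these receptors, rose by 0.38. Grp, gastrin-releasing peptide, averaged 3.07 ± 1.14 FPKM in pIONT and 0.132 ± 0.0426 FPKM in sham libraries (SD, n = 3, log2 fold change 2.45, limma adjusted p = 0.000649). It passed the filter through the pIONT libraries alone. The 3 that fell, named after their values were seen, were the serotonin receptor Htr7 at -0.58, the neuromedin B gene Nmb at -0.37 and the phospholipase Plcb3 at -0.37. The channels Trpa1 and Trpv1, through which many itch receptors act, did not pass, at -0.17 and 0.05. Il4ra, Il13ra1 and Jak1 are also used by immune cells, and 6 of 10 macrophage genes were called higher in pIONT libraries and 0 lower. That 6 became 1 without sham 2, 2 without sham 3, pIONT 1 or pIONT 2 and 3 with a replicate block. The mast cell list had a summed level of 13.3 to 24.2 FPKM in pIONT and 7.82 to 14.6 FPKM in sham libraries, and 3 of its 6 tested genes were called higher, of which Tpsab1 and Hdc passed the filter through the pIONT libraries alone. The part of such cells in these changes was not tested.

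Of 16 further Mrgpr family genes 13 were found and 5 passed the filter, with 0 called by limma. Mrgpre, an orphan receptor, came nearest, at 6.30 ± 0.390 FPKM in pIONT and 5.45 ± 0.0942 FPKM in sham libraries (SD, n = 3, log2 fold change 0.19, limma adjusted p = 0.0511), and it was called in 6 of 16 alternatives. Mrgprb5, a relative of Mrgprb4, averaged 7.19 ± 1.36 FPKM in pIONT and 7.25 ± 4.90 FPKM in sham libraries (SD, n = 3). Among receptors of somatostatin and natriuretic peptides and relatives of the histamine, leukotriene and protease receptors, 8 of 19 passed the filter and 1 fell. This was the thrombin receptor gene F2r at -0.39 (limma adjusted p = 0.0478), a call lost in 9 of 16 alternatives, among them those without sham 1, sham 2, pIONT 1 or pIONT 2. Npr1, which binds the peptide encoded by Nppb and was named after its values were seen, had a log2 fold change of -0.13 and did not pass.

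Lists of other neurons set the size of these changes. Of 13 genes of mechanoreceptors and proprioceptors 8 fell and 1 rose, with a median of -0.43, led down by Calb2 (calretinin) at -2.02 and Pvalb (parvalbumin) at -1.41. Of 11 tested transcription factors of sensory neuron subtypes 9 fell and 0 rose, with a median of -0.33, and the 9 became 5 without sham 2 or sham 3. They included Hoxd1 at -0.85, Prdm12 at -0.51 and Runx1, which sets the non-peptidergic fate and was named after its values were seen, at -0.26 (limma adjusted p = 0.0250). Of 10 tested genes of peptidergic nociceptors 3 fell and 2 rose, with the cold channel Trpm8 at -1.10 and the peptide gene Adcyap1 at 1.58. All 10 genes of the nerve injury response rose, although Sprr1a, Npy and Ecel1 passed the filter through the pIONT libraries alone. With no filter the same count of 10 was called. With scaling to sensory neuron genes the lower calls numbered 5 of 13 among mechanoreceptor and proprioceptor genes, 5 of 11 among the transcription factors and 2 of 10 in the peptidergic list.

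**Figure D3:**
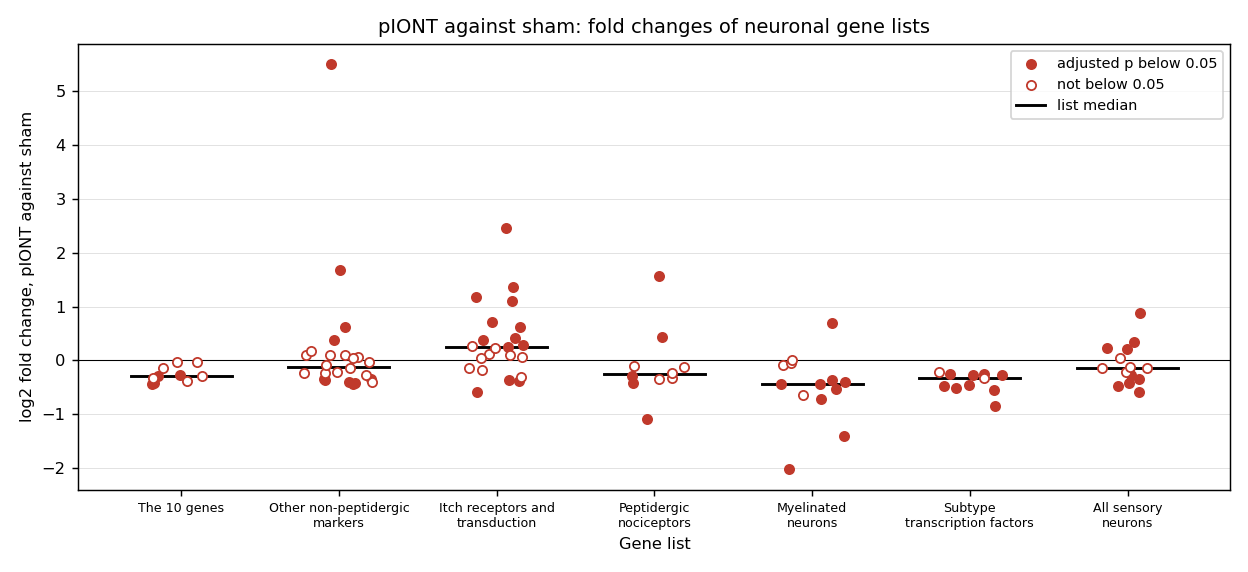
Log2 fold change of each tested gene in pIONT against sham libraries, with 1 point per gene, filled where the limma adjusted p was below 0.05, and a line at the median of each list. The 10 genes lie between -0.43 and -0.03, while other non-peptidergic markers reach 5.50. Genes of mechanoreceptors and proprioceptors reach -2.02, in a column labelled as myelinated neurons although Th and Slc17a8 mark unmyelinated ones.

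Profiles over the 6 surgery libraries placed Mrgprd nearest to 5 genes of mean FPKM of at least 1 out of 12737 candidates, by the root mean square difference of centred log2 values. These were the kainate receptor gene Grik1 at 0.0440, Unc119 at 0.0537, Rap1gap2 at 0.0632, 0610040J01Rik at 0.0644 and Prr5 at 0.0652, against a median of 0.265 over all candidates. Sst was nearest to Gm10516 at 0.0669, Rtbdn at 0.0735, Gm19345 at 0.0738, the angiotensin receptor gene Agtr1b at 0.0743 and Zfp804a at 0.0845, against a median of 0.272. The profiles over the 6 libraries include the group difference, so these distances are a description.

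The second comparison set ganglia 6 hours after UCN1 against those injected with PBS. In limma 0 of the 10 genes were called, 0 higher and 0 lower, with 3 of them, Mrgpra3, Nppb and Il31ra, at an unadjusted p below 0.05. Of 16139 genes tested 0.601% were called, 0.304% higher and 0.297% lower, and 13.1% had an unadjusted p below 0.05. In each of the alternatives, voom on rebuilt reads included, 0 of the 10 were called. The estimates pointed upward in 9 of the 10 genes, Cysltr2 being the other, with a median log2 fold change of 0.27 against -0.01 for all genes tested. Of all genes tested 51.46% had an estimate below 0. Among the 9, Sst was at 0.02 although its mean FPKM was lower in UCN1 libraries. Sst, Mrgprx1 and Hrh1 each changed sign in at least 1 alternative. With 2 libraries per group the intervals were wide. In 5 of the 10 genes both UCN1 libraries were above both PBS libraries, as in 21.8% of all genes tested, and groups without overlap in either direction made up 45.5% of all genes.

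**Figure D4:**
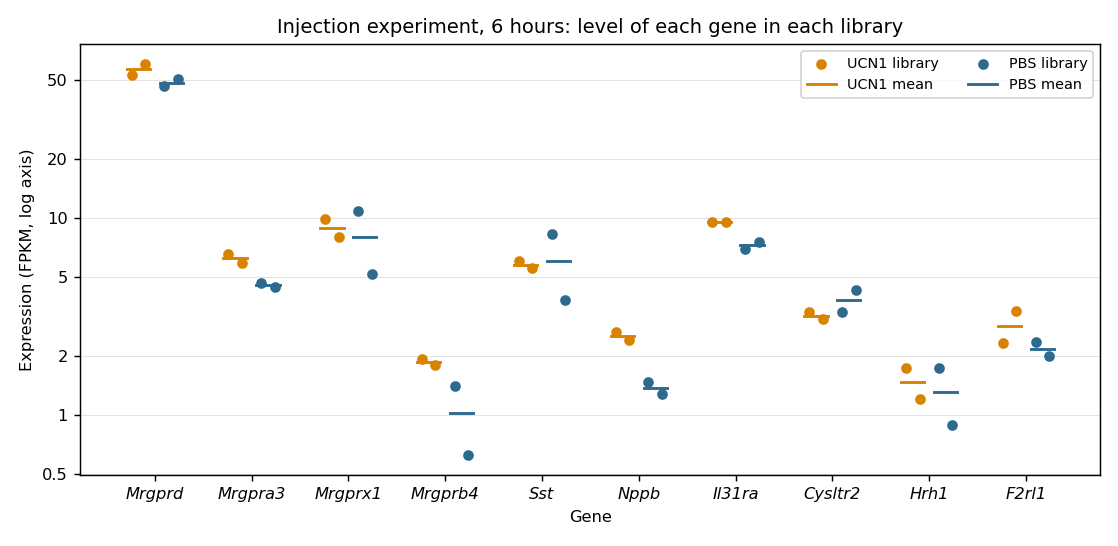
Level of each gene in the injection experiment, in FPKM on a log axis, with 1 point per library, UCN1 in orange and PBS in blue, and a line at each group mean. Mrgprd, Mrgpra3, Mrgprb4, Nppb and Il31ra have both UCN1 points above both PBS points, and Mrgprx1, Mrgprb4, Sst and Hrh1 show a wide gap between the PBS points.

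Nppb had the largest estimate, at 2.63 and 2.40 FPKM in UCN1 libraries, against 1.47 and 1.28 FPKM in PBS libraries. These values rested on 35 and 31 reads in UCN1 libraries and 18 and 17 reads in PBS libraries. The log2 fold change was 0.69 (95% interval 0.16 to 1.22, limma adjusted p = 0.271). Both UCN1 values were above both PBS values, yet the difference did not pass among all genes. Mrgprb4 had an estimate as large, at 1.92 and 1.79 FPKM in UCN1 libraries and 1.41 and 0.626 FPKM in PBS libraries, and PBS 2 held 13 of its reads. Its log2 fold change was 0.68 (95% interval -0.05 to 1.41, limma adjusted p = 0.409).

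Mrgpra3 was at 6.57 and 5.89 FPKM in UCN1 libraries, against 4.67 and 4.48 FPKM in PBS libraries, with a log2 fold change of 0.40 (95% interval 0.04 to 0.77, limma adjusted p = 0.341). Il31ra was at 9.48 and 9.56 FPKM in UCN1 libraries, against 6.97 and 7.57 FPKM in PBS libraries, with a log2 fold change of 0.37 (95% interval 0.05 to 0.68, limma adjusted p = 0.317). Both genes were higher in each UCN1 library than in either PBS library, and neither passed. Mrgprd was at 53.0 and 60.6 FPKM in UCN1 libraries, against 46.4 and 50.6 FPKM in PBS libraries, with a log2 fold change of 0.23 (95% interval -0.01 to 0.46, limma adjusted p = 0.406). On 2289 to 3147 reads per library, its spread was not limited by counting.

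In the other genes the groups overlapped. Mrgprx1 was at 9.89 and 7.95 FPKM in UCN1 libraries, against 10.8 and 5.17 FPKM in PBS libraries, and Sst was at 6.02 and 5.54 FPKM in UCN1 libraries, against 8.31 and 3.82 FPKM in PBS libraries. For both genes the UCN1 values lay between the PBS values, and without PBS 2 the log2 fold changes turned to -0.27 and -0.49. Cysltr2 was at 3.34 and 3.06 FPKM in UCN1 libraries, against 3.33 and 4.31 FPKM in PBS libraries (log2 fold change -0.22, limma adjusted p = 0.685). F2rl1 was at 2.31 and 3.36 FPKM in UCN1 libraries, against 2.35 and 1.99 FPKM in PBS libraries (log2 fold change 0.31, limma adjusted p = 0.625). The gene that fell most clearly after pIONT thus showed no passing difference after UCN1, and its interval of -0.24 to 0.86 excluded few sizes. Hrh1 was at 1.74 and 1.20 FPKM in UCN1 libraries, against 1.74 and 0.891 FPKM in PBS libraries (log2 fold change 0.15, limma adjusted p = 0.883).

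PBS 2 was the lowest library for 7 of the 10 genes. It was lower than PBS 1 in Mrgprx1, Mrgprb4, Sst and Hrh1, and by smaller ratios in Mrgpra3, Nppb and F2rl1. Mrgprd, Il31ra and Cysltr2 were higher in PBS 2 than in PBS 1. The summed level of the 10 genes was 96.9 and 101 FPKM in UCN1 libraries, against 87.4 and 80.7 FPKM in PBS libraries. The summed level of the list of sensory neuron genes was 5686 to 5968 FPKM in UCN1 and 5585 to 5726 FPKM in PBS libraries, and its median log2 level was 7.17 and 7.26 in UCN1 and 7.07 and 7.17 in PBS libraries. Pituitary genes differed strongly, with summed levels of 9.17 to 9.61 FPKM in UCN1 and 124 FPKM in each PBS library, and growth hormone, Gh, at -4.03 on the log2 scale. The fibroblast and meningeal genes Fmod and Slc47a1 were also lower in UCN1 libraries, at -3.98 and -3.24, calls lost in 3 and 4 of 14 alternatives. The part of such tissue in the values of the 10 genes was not tested.

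**Figure D5:**
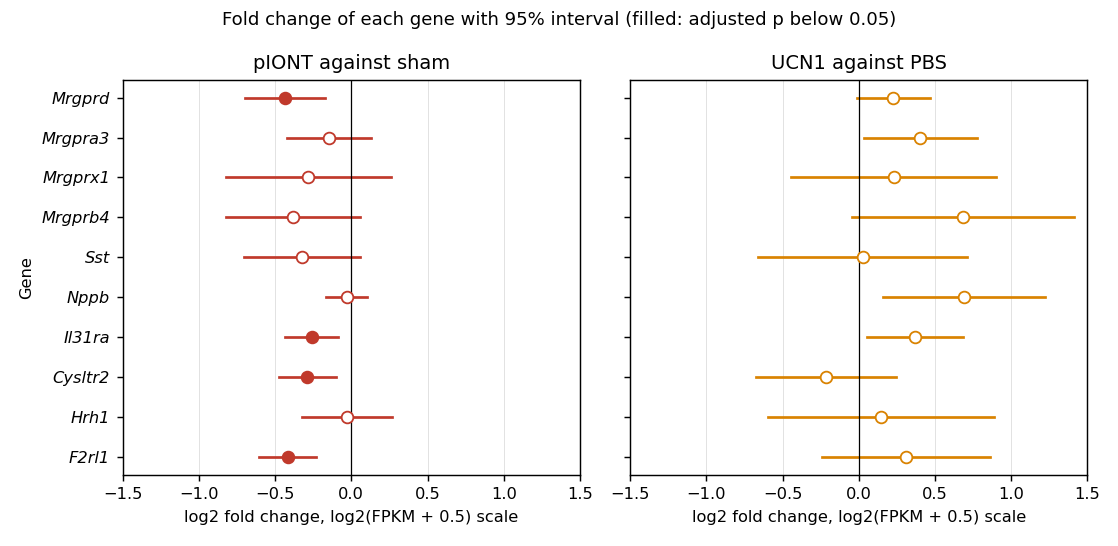
Log2 fold change of each gene with its 95% interval, for pIONT against sham on the left and UCN1 against PBS on the right, filled where the limma adjusted p was below 0.05. The 4 filled points, Mrgprd, Il31ra, Cysltr2 and F2rl1, are all on the left and below 0. The intervals on the right are wider for every gene except Mrgprd.

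The wider lists had few calls after UCN1. In limma 0 of 24 markers of non-peptidergic nociceptors were called, with a median of 0.07, and 0 of 22 itch receptors and signalling genes, with a median of 0.02. Among the 24 markers 17 estimates were above 0 and 7 below, and Nts, named here after its values were seen, came nearest to a call. Nts averaged 3.10 ± 0.200 FPKM in UCN1 and 0.883 ± 0.0516 FPKM in PBS libraries (SD, n = 2, log2 fold change 1.38, limma adjusted p = 0.0573). Further Mrgpr family genes, with 5 tested, and the partners, with 9 tested, had 0 calls. The list of mechanoreceptors and proprioceptors, the subtype transcription factors and the list of sensory neuron genes also had 0. With voom on rebuilt reads 1 non-peptidergic marker was called higher and 1 partner lower. With a replicate block 1 non-peptidergic marker was called higher and 0 partners were called. Among peptidergic genes Cartpt, a neuropeptide, was higher, at 15.7 ± 0.336 FPKM in UCN1 and 8.48 ± 0.914 FPKM in PBS libraries (SD, n = 2, log2 fold change 0.86, limma adjusted p = 0.0462), a call lost in 6 of 14 alternatives, among them those without any 1 of the 4 libraries. Of 7 tested genes of the nerve injury response Atf3 was higher, at 1.18 on the log2 scale, a call lost in 5 of 14 alternatives, among them those without UCN1 1, UCN1 2 or PBS 2. Mast cell genes had 0 calls and a median of -0.48.

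In PBS libraries the order again began with Mrgprd, at 48.5 ± 2.95 FPKM (SD, n = 2), and no other gene overlapped it. Gene length was defined differently in this table, as the mean of the transcripts rather than the union of exons, so levels were not set against those of the surgery table. The choice mattered for 3 genes. Il31ra, whose length is 2393.5 bases by transcripts and 5673 by exons, averaged 7.27 FPKM in PBS libraries as deposited and 3.07 per base of exon union. Cysltr2 averaged 3.82 as deposited and 1.45 per base of exon union, and Hrh1 1.31 as deposited and 0.758 per base of exon union. The other 7 genes have the same length under both definitions. The effects of pIONT and of UCN1 were measured in separate tables with separate normalization, and the difference between them was not tested.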

How the data were processed

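RNA of 10 trigeminal ganglion libraries was extracted with TRIzol and made into NEBNext Ultra II libraries, per the labels' protocols. The authors deposited FPKM, with each experiment in a table of its own. Per the submitters' processing notes, the tools were STAR, HTSeq and DESeq2 and the build GRCm39, without versions or roles. Of matched genes, 1.99% (surgery) and 99.42% (injection) had the start and end of GENCODE vM21 (GRCm38), so the annotations differ. Symbols were taken from GENCODE vM21 by identifier. No label states whether the counting was stranded.

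Low FPKM multiplied by gene length were whole multiples of a step (tolerance 0.1 reads, up to 20 reads) for 92.4% to 92.9% of values with exon unions (surgery) and 98.8% to 99.0% with mean transcript lengths (injection). These steps gave depths and reads. Intervals cover the spread between libraries.

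Genes with a mean of at least 0.5 FPKM were tested within each table on log2(FPKM + 0.5) with limma 3.58.1 (mean-variance trend, no covariate, two-sided) in R 4.3.3, and adjusted by Benjamini-Hochberg over all genes tested, with a threshold of 0.05. This scale understates changes of low genes. Alternatives changed the pseudocount, filter and scaling, added array weights or a replicate block, used voom on the rebuilt reads, or left out a library.

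The 10 genes and the 15 lists were chosen with earlier results of these data known. Beyond the 10 genes, up to 4 called genes of a list were named by smallest p, or up to 2 by level where a list had 0 calls, and 5 nearest profiles each for Mrgprd and Sst. Lists are described by counts and medians, with no set test. The values of 1 gene that fell in the list of non-peptidergic markers are not reported here.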

Additional observations from a re-analysis of the deposited data

How the results depend on the processing

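Of the 10 genes, the count called in pIONT against sham was 4 as reported, under both other pseudocounts and under TPM, and 3 with array weights or voom. It was 1 with no filter, 2 of 7 tested at 2 FPKM, 2 with median-of-ratios scaling and 0 with scaling to sensory neuron genes, which was chosen after seeing the data, and 0 to 1 with a library left out. Genes called numbered 3344 as reported, 1689 without sham 3, 2076 without sham 2 and at most 2969 with a library left out. The share of calls that were higher was 46.0%, 36.6% under TPM, 54.5% with median-of-ratios scaling and 89.8% with scaling to sensory neuron genes. Estimates that changed sign were, with scaling to sensory neuron genes, Mrgpra3 at 0.059, Nppb at 0.18 and Hrh1 at 0.18. With a library left out, Hrh1 ranged from -0.13 to 0.051, above 0 without sham 1, pIONT 1 or pIONT 3, and Mrgprb5 from -0.29 without sham 2 to 0.66. The causes were not tested.

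For UCN1 against PBS, 0 of the 10 genes were called in any alternative run. Genes called numbered 97 as reported, 2 with no filter, 155 at 2 FPKM, 332 with voom, 15 with scaling to sensory neuron genes, and 5 to 38 with a library left out (7 without UCN1 1, 5 without UCN1 2, 38 without PBS 1, 20 without PBS 2). Calls in the lists numbered 7 as reported, 1 with no filter, 4 with scaling to sensory neuron genes and 2 to 5 with a library left out. Sst changed sign under TPM, at -0.00187, and with scaling to sensory neuron genes, at -0.069. With a library left out, Mrgprx1 ranged from -0.27 to 0.73, Sst from -0.49 to 0.54 and Hrh1 from -0.20 to 0.49, each lowest without PBS 2, and Sst and Hrh1 were also below 0 without UCN1 1.

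Whether replicate numbers pair the samples was not settled. In the surgery experiment, correlations of same-numbered deviations were -0.06, -0.20 and 0.07, against -0.21 to 0.23 for other numbers. With 2 libraries per group the deviations mirror each other, so the 0.04 of the injection experiment cannot decide it. With the number as a replicate block, 2085 genes and 1 of the 10, F2rl1, were called in pIONT against sham, and 260 genes in UCN1 against PBS. Nppb and Mrgprb4 rested on at most 27 reads in each PBS library, which limits the precision of both.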
